A study of Mus musculus with 8 samples.

Results

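The 10 genes described here decide what a cell does with pyruvate: *Ldha* and *Ldhb*, which encode the subunits of lactate dehydrogenase; *Slc16a1* and *Slc16a3*, which encode the monocarboxylate transporters MCT1 and MCT4; *Mpc1* and *Mpc2*, the subunits of the mitochondrial pyruvate carrier; and *Pdk1* to *Pdk4*, the pyruvate dehydrogenase kinases. They were chosen by name, with earlier results of these data known, and are 10 of the 22274 genes in the table. RNA came from primary murine cardiac fibroblasts, the cells that lay down the matrix of the heart, which were transduced in culture with adenovirus and then treated with 5 ng/ml TGF-β for 24 h, a cytokine that drives fibroblasts towards myofibroblasts. By the study's description the 4 libraries labelled GFP received the empty vector and the 4 libraries labelled OEIRF7 received IRF7 with a FLAG tag, and both groups received TGF-β, so no untreated cells enter any comparison. The virus listed for this purpose carries the human IRF7 gene under the CMV promoter, and the mouse strain and any pooling of animals were not given for these cells in the sources used here. The labels do not say that the libraries came from separate cultures or animals, so p-values measure only the spread between these libraries, which may be technical.

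Pyruvate is the end product of glycolysis. In the cytosol lactate dehydrogenase, a tetramer of A and B subunits, interconverts pyruvate and lactate and regenerates NAD+, and lactate leaves or enters the cell with a proton through the monocarboxylate transporters. Pyruvate that is to be oxidised crosses the inner mitochondrial membrane through the carrier formed by MPC1 and MPC2 and is turned into acetyl-CoA by the pyruvate dehydrogenase complex, which the kinases PDK1 to PDK4 switch off by phosphorylation and phosphatases switch on again. The study asked how IRF7 acts on hexokinase 1, the cellular lactate pool and histone lactylation, and the genes downstream of pyruvate bear on the lactate side of that question.

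The libraries held between 24454801 and 28658826 counted reads. Mouse *Irf7* went against the label: it averaged 117.9 ± 24 CPM (counts scaled to the depth of the library) in the GFP libraries and 15.2 ± 0.822 in the libraries labelled OEIRF7 (SD, n = 4 each), a log2 fold change of -2.96 with an adjusted p of 7.7e-11. The table has no row for a human transgene, so no value here shows it in the libraries labelled OEIRF7. The directions below are between libraries as labelled. Every one of them would turn if the labels of the groups were exchanged, which was not tested. *Hk1*, which encodes hexokinase 1, was higher in the libraries labelled OEIRF7, by 0.79 on the log2 scale (adjusted p = 5.4e-08). Fibroblast markers made up 13460.2 to 14180.4 CPM in the GFP libraries and 11855.5 to 12452.8 CPM in the libraries labelled OEIRF7, where 1 of 10 was higher and 6 were lower. Of 12 cardiomyocyte markers only 2 passed the filter on low counts, and 1 of these was lower. The list summed to between 10.6 and 14.1 CPM in the GFP libraries and to between 8.76 and 10.6 CPM in the libraries labelled OEIRF7, most of it *Tnnt2* (11.3 and 7.78 CPM), while *Myh6* reached at most 1 count in any library. Macrophage markers summed to between 287.7 and 340.2 CPM in the GFP libraries and to between 364.7 and 407.2 CPM in the libraries labelled OEIRF7, with 5 of 9 higher and none at 0 in all libraries. Mural cell markers ran from 69.2 to 77.4 CPM and from 80.3 to 100.9 CPM, endothelial markers from 229.4 to 241.3 and from 233.3 to 259.8 CPM, and epicardial markers from 72.5 to 88.8 and from 58.6 to 66.0 CPM, in the same order of groups. Of the markers tested, 3 of 6 mural were higher and 2 lower, 3 of 8 endothelial higher and 1 lower, and 2 of 5 epicardial higher and 1 lower. The mural and epicardial sums mix opposite changes. Mural *Cspg4* went from 22.4 to 63.3 CPM and *Notch3* from 41.4 to 13.6 CPM. Epicardial *Upk3b* went from 51.8 to 20.8 CPM and *Krt19* from 4.75 to 18.5 CPM. Of all genes tested 58.9% were called, 29.0% higher and 29.9% lower, at an adjusted p under 0.05 by edgeR. The part of these marker differences in the results below was not tested. In bulk RNA fewer cells of a type and less RNA per cell cannot be told apart.

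Of the 10 genes, 4 were higher in the libraries labelled OEIRF7, namely *Slc16a3*, *Ldha*, *Slc16a1* and *Pdk1*, and 4 were lower, namely *Ldhb*, *Pdk4*, *Pdk2* and *Pdk3*. The carrier genes *Mpc1* and *Mpc2* did not pass the test, which was edgeR's quasi-likelihood test at an adjusted p under 0.05. Calls were common in these libraries: 58.9% of the 13533 genes tested were called, 29.0% higher and 29.9% lower. In 8 of the 10 genes the groups did not overlap in log2 CPM, compared with 53.8% of the genes tested. The median size of the log2 difference was 0.494 for the 10 genes and 0.252 for all genes tested, while the median signed difference was 0.08 and 0.00153. Because the 10 genes were chosen with earlier results of these data known, these comparisons with all genes tested only describe the list. Both transporter genes were higher, while the lactate dehydrogenase pair and the kinase family each had members called in either direction.

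**Figure D1:**
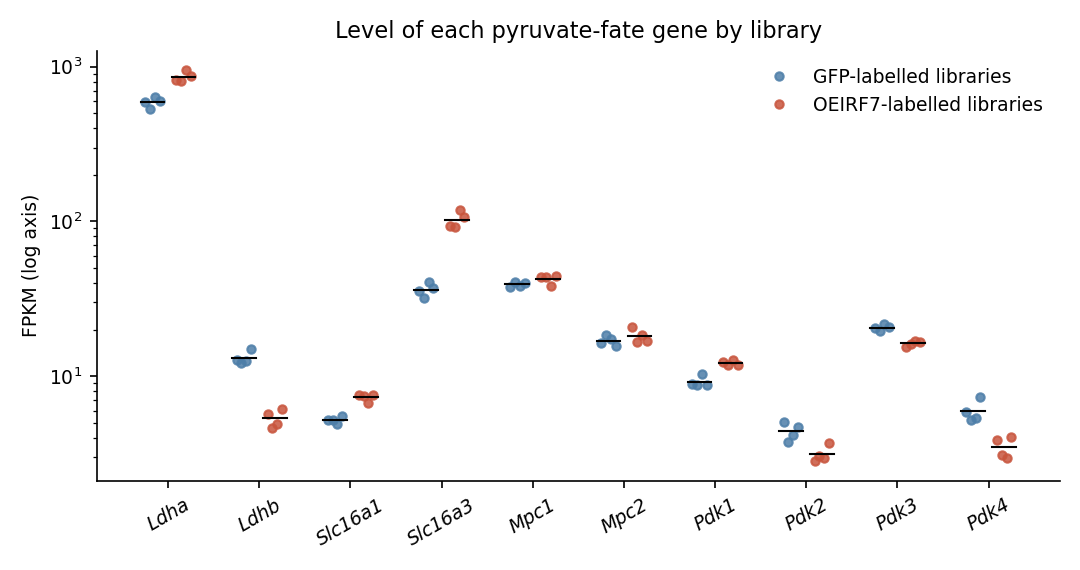
FPKM of each gene (log axis) in the 4 libraries labelled GFP (blue) and the 4 labelled OEIRF7 (red); each point is 1 library and the black line is the group mean. *Ldha* lies above all other genes in both groups, *Slc16a3* moves from 36.2 to 102.2 FPKM on average, and the points of *Mpc1* and *Mpc2* overlap.

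*Ldha* and *Ldhb* moved apart. Levels between genes are compared in FPKM, a level scaled to the length of the transcript and the depth of the library, which accounts for transcript length. *Ldha* encodes the A (muscle-type) subunit and lies on chr7:46841475-46855627, plus strand (GRCm38). It stood at 588.9, 530.9, 638.0 and 597.0 FPKM in GFP libraries 1 to 4 and at 817.8, 803.4, 945.7 and 872.4 FPKM in the libraries labelled OEIRF7. All OEIRF7 values lay above all GFP values, and in both groups *Ldha* was the most abundant of the 10 transcripts, at the 99.6th percentile of all genes tested by mean FPKM. It was 1.43-fold higher in the libraries labelled OEIRF7, a log2 difference of 0.52 (SE 0.0574, adjusted p = 2.1e-06). *Ldhb*, on chr6:142490249-142507957, minus strand, encodes the B (heart-type) subunit. It stood at 12.81, 12.25, 12.46 and 14.89 FPKM in the GFP libraries and at 5.68, 4.62, 4.94 and 6.16 FPKM in the libraries labelled OEIRF7. Its highest OEIRF7 value was below its lowest GFP value, and the fall was the largest among the 10 genes, to 0.4 times the GFP level (log2 difference -1.32, SE 0.102, adjusted p = 4.7e-08).

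The B subunit was a minor part of the lactate dehydrogenase transcripts in every library. *Ldhb* made up 2.18% ± 0.218 of the summed *Ldha* and *Ldhb* FPKM in the GFP libraries and 0.621% ± 0.0892 in the libraries labelled OEIRF7 (SD, n = 4 each). The ranges, 1.92% to 2.43% and 0.52% to 0.701%, did not overlap, and an exact two-sided permutation test gave p = 0.029, the smallest that 4 against 4 libraries allow (0.04 after adjustment over the 7 shares tested). As a ratio within each library, *Ldha* exceeded *Ldhb* by 40.1-fold to 51.2-fold in FPKM in the GFP libraries and by 142-fold to 191-fold in the libraries labelled OEIRF7. The summed level of both genes was 601.8 ± 44.4 FPKM and 865.2 ± 64.5 FPKM, a ratio of 1.44 that follows *Ldha*. The 3 other lactate dehydrogenase genes in the table had too few reads to be tested. *Ldhc*, the testis form, had 46 counts in GFP library 1 and 0 in the other 7. *Ldhal6b* had between 1 and 17 counts a library, and *Ldhd*, the mitochondrial D-lactate dehydrogenase, between 3 and 13. Processed pseudogenes of *Ldha* exist on chromosomes 2 and 4 and have no row in the table, so how reads shared with them were counted is uncertain.

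The 250 bases before the RefSeq start of *Ldha* and *Ldhb* are shown because the members of this pair differ in direction and because *Ldha* is a classical target of HIF-1 and MYC, whose core motifs are short. Both are read in the direction of the gene, from the GRCm38.p6 tables of RefSeq, at chr7:46845554-46845803 (plus strand) and chr6:142507958-142508207 (minus strand). Capitals mark ACGTG and GCGTG on either strand, the letters of the hypoxia response element.
Ldha: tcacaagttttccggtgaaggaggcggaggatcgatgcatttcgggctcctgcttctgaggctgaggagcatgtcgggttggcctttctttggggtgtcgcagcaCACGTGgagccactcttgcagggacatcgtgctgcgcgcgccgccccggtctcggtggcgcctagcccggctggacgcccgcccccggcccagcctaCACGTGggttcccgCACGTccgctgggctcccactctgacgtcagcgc
Ldhb: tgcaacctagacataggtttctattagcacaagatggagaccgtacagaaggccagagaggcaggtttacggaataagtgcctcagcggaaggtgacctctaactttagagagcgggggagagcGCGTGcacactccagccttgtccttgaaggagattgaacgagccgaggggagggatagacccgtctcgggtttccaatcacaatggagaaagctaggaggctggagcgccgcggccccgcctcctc
The *Ldha* stretch holds 3 marked places, and in 2 of them the letters are CACGTG, the E-box to which MYC binds, at positions -145 and -48 from the start. A CACGTG carries ACGTG on both strands, so the motifs overlap there. The *Ldhb* stretch holds 1 marked place, and *Ldhb* also has AGGTCA, the core of nuclear receptor sites, at -157. GC content was 67.2% and 56.4%.

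*Slc16a3* showed the largest rise among the 10 genes. It encodes MCT4, a low-affinity transporter best known for lactate export from glycolytic cells, and lies on chr11:120948480-120960868, plus strand. The GFP libraries held 35.30, 31.96, 40.42 and 37.30 FPKM and the libraries labelled OEIRF7 held 93.19, 91.66, 117.7 and 106.3 FPKM. Every OEIRF7 library was above every GFP library by a wide gap. The log2 difference was 1.51 (SE 0.0757, adjusted p = 4.9e-10), 2.86-fold, and its size was at the 96.3rd percentile of all genes tested. The summed macrophage markers also rose between the groups, as given above, and *Slc16a3* is transcribed in activated macrophages as well as in fibroblasts; the part of these cells in the rise was not tested.

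*Slc16a1*, on chr3:104638668-104658462, plus strand, encodes MCT1, the widely expressed transporter of higher affinity that carries lactate in either direction. It stood at 5.19, 5.20, 4.89 and 5.56 FPKM in the GFP libraries and at 7.61, 7.48, 6.71 and 7.6 FPKM in the libraries labelled OEIRF7. The groups did not overlap, and OEIRF7 library 3 lay below the other 3 of its group. The log2 difference was 0.47 (SE 0.0579, adjusted p = 6.6e-06), 1.38-fold. *Slc16a3* made up 87.4% ± 1.34 of the summed *Slc16a1* and *Slc16a3* FPKM in the GFP libraries and 93.2% ± 1.02 in the libraries labelled OEIRF7, a difference of 5.85 percentage points (exact permutation p = 0.029, adjusted 0.04), or 12.1 percentage points by counts in place of FPKM. The ratio of *Slc16a3* to *Slc16a1* counts rose by 1.04 on the log2 scale (exact permutation p = 0.029, adjusted over 9 ratios 0.043). The adjusted p was 0.051 by FPKM in place of counts (1.0) and without GFP library 4 (1.0), by the same exact permutation test. The summed level of both transporters went from 41.5 ± 3.47 to 109.6 ± 11.9 FPKM.

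The stretch before the *Slc16a3* start, chr11:120948817-120949066 (plus strand, GRCm38.p6), is shown as that of the gene that rose most, with the same letters in capitals.
Slc16a3: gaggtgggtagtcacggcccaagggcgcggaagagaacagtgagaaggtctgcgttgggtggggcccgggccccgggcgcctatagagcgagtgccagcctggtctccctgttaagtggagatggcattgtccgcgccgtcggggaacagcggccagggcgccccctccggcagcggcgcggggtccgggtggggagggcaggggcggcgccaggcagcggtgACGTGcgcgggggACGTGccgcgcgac
It holds 2 marked places, both ACGTG and both within 30 bases of the start, at -27 and -14, and has a GC content of 73.6%. The stretch of *Slc16a1* holds 3 such places, of which the one at -200 is a CACGTG.

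No other lactate or monocarboxylate transporter passed the test as higher. Of 15 genes, made up of the *Slc16a* paralogs, the sodium-coupled *Slc5a8* and *Slc5a12*, and the chaperones of MCT1 and MCT4, 10 were tested. By edgeR 0 were higher and 3 were lower (median log2 difference -0.04). The share called was 30%, against 58.9% of all genes tested. At an unadjusted p under 0.05, 0 were higher by edgeR, and 0 were called higher by DESeq2. Without GFP library 1, *Slc16a6* was called higher (0.59, adjusted p = 0.049). *Slc16a7*, which encodes the high-affinity transporter MCT2, fell from 2.46 to 1.17 CPM (log2 difference -1.07, adjusted p = 0.0001), and by limma on FPKM the difference was -0.32 or -0.7 with a pseudocount of 1 or 0.1. *Slc16a4*, an orphan member of the family, fell from 4.11 to 1.79 CPM (-1.2, adjusted p = 2.8e-05; -0.66 by limma with a pseudocount of 1). *Bsg* encodes basigin, the chaperone that MCT1 and MCT4 need to reach the plasma membrane. It averaged 546.0 and 566.5 CPM (log2 difference 0.05, adjusted p = 0.15). This missed the threshold in the main test and passed it without scaling beyond library size (0.08, adjusted p = 0.031) and in FPKM by limma (0.08, adjusted p = 0.042 and 0.045). *Emb*, the chaperone embigin, was at 2.16 and 2.71 CPM (0.32, adjusted p = 0.23).

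The subunits of the mitochondrial pyruvate carrier did not differ beyond the spread of the libraries. The carrier is a heterodimer, so both subunits are needed for transport. *Mpc1*, on chr17:8282904-8297661, plus strand, was at 37.79, 40.49, 38.51 and 39.78 FPKM in the GFP libraries and at 43.61, 43.42, 38.43 and 44.39 FPKM in the libraries labelled OEIRF7. The groups overlapped through OEIRF7 library 3, which was the second lowest of the 8. The log2 difference was 0.09 with a 95% interval from -0.01 to 0.19 (adjusted p = 0.13, exact permutation p = 0.114). Without OEIRF7 library 3 it was 0.13 and passed the threshold (adjusted p = 0.021). *Mpc2*, on chr1:165460637-165481214, plus strand, was at 16.49, 18.38, 17.37 and 15.74 FPKM and at 20.93, 16.58, 18.57 and 16.88 FPKM. Its groups overlapped, and the difference was 0.07 with an interval from -0.08 to 0.23 (adjusted p = 0.44, exact permutation p = 0.457). *Mpc1* made up 69.7% ± 1.32 of the summed FPKM of the pair in the GFP libraries and 70% ± 2.84 in the libraries labelled OEIRF7 (exact permutation p = 0.943), a difference of 0.211 percentage points that ranged from -0.622 to 1.05 on leaving out each library. The intervals leave room for rises of up to 0.19 and 0.23 on the log2 scale. Of the exon bases of *Mpc1*, 23.1% overlap 4930506C21Rik on the opposite strand, and the strand setting of the counting is not given in the sources used here, so reads there cannot be assigned with certainty. A processed pseudogene of *Mpc1* lies on chromosome 12 and has no row of its own, so how reads shared with it were counted is uncertain.

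**Figure D2:**
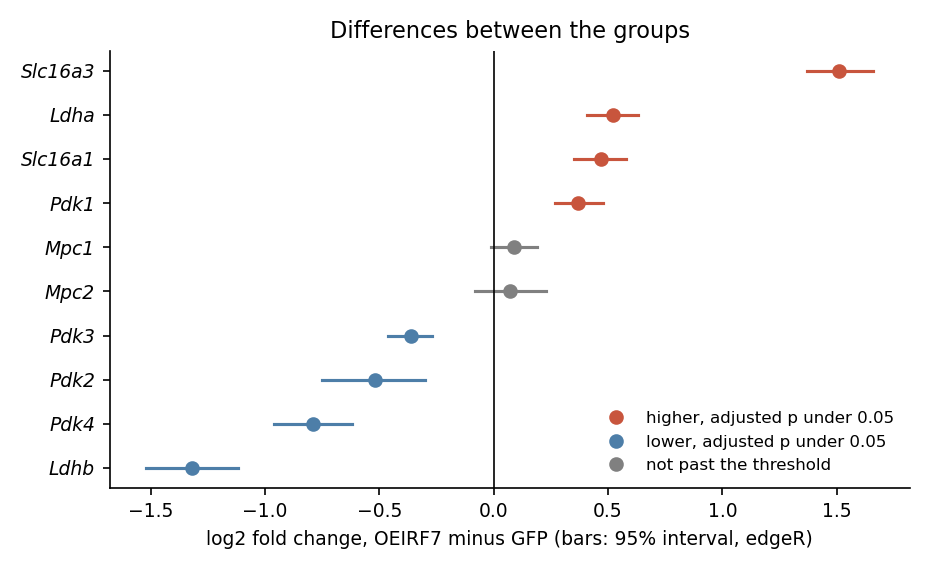
Log2 fold change (OEIRF7 minus GFP, edgeR) of each of the 10 genes, with its 95% interval as a bar and ordered by size; red and blue mark genes past an adjusted p of 0.05 that were higher or lower and grey marks those not past it. The values run from -1.32 for *Ldhb* to 1.51 for *Slc16a3*, and only the intervals of *Mpc1* and *Mpc2* reach 0.

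The pyruvate dehydrogenase kinases split, *Pdk1* going up and *Pdk2*, *Pdk3* and *Pdk4* going down. *Pdk1*, on chr2:71873224-71903858, plus strand, encodes the kinase known for its induction by HIF-1 in hypoxia. It was at 8.95, 8.77, 10.31 and 8.71 FPKM in the GFP libraries and at 12.29, 11.73, 12.67 and 11.81 FPKM in the libraries labelled OEIRF7. The groups did not overlap, and GFP library 3 was the highest of its group. The log2 difference was 0.37 (SE 0.0539, adjusted p = 3e-05), 1.3-fold. *Pdk3*, on chrX:93764607-93832201, minus strand, was the most abundant of the kinases in both groups. It was at 20.54, 19.56, 21.64 and 20.65 FPKM in the GFP libraries and at 15.53, 16.20, 16.96 and 16.51 FPKM in the libraries labelled OEIRF7. It fell by 0.36 on the log2 scale (SE 0.0479, adjusted p = 1.2e-05) with no overlap.

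*Pdk4*, on chr6:5483351-5496309, minus strand, is the kinase induced by fasting, fatty acids and glucocorticoids through PPAR and FOXO factors. It was at 5.84, 5.23, 5.34 and 7.39 FPKM in the GFP libraries and at 3.85, 3.11, 2.95 and 4.06 FPKM in the libraries labelled OEIRF7. GFP library 4 was the highest, and all OEIRF7 libraries lay below all GFP libraries. The log2 difference was -0.79 (SE 0.0879, adjusted p = 2.3e-06), the largest fall among the kinases. *Pdk2*, on chr11:95026258-95041354, minus strand, encodes the broadly expressed kinase that pyruvate and its analog dichloroacetate inhibit. It was at 5.08, 3.75, 4.19 and 4.67 FPKM in the GFP libraries and at 2.82, 3.05, 2.96 and 3.73 FPKM in the libraries labelled OEIRF7. The highest OEIRF7 value, 3.73, lay just under the lowest GFP value, 3.75. The log2 difference was -0.52 (SE 0.113, adjusted p = 0.0011), with the widest interval of the 10 genes (-0.75 to -0.3).

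Within a library the mixture of kinase transcripts shifted towards *Pdk1*. *Pdk1* rose from 22.9% ± 1.66 to 34.6% ± 1.39 of the summed FPKM of the 4 kinases, with ranges of 21% to 24.9% and 32.7% to 35.6%. *Pdk3* went from 51.3% ± 1.2 to 46.5% ± 1.33 and *Pdk4* from 14.8% ± 2.14 to 9.96% ± 1.48. For each of these 3 the groups did not overlap, and an exact permutation test gave p = 0.029 (adjusted 0.04). The *Pdk4* share missed the threshold without OEIRF7 library 3 (-4.29 percentage points, adjusted exact permutation p = 0.08). *Pdk2* was at 11% ± 1.19 and 8.95% ± 0.981, with overlapping groups (exact permutation p = 0.086, adjusted 0.1). By counts in place of FPKM the difference in the *Pdk2* share was -2.15 percentage points and passed the threshold (adjusted p = 0.033), as it did without OEIRF7 library 4 (-2.52, adjusted p = 0.033), both by the exact permutation test. Ratios between the kinases, which do not depend on the depth or scaling of a library, gave the same order: the *Pdk1* to *Pdk4* ratio rose by 1.16, *Pdk1* to *Pdk2* by 0.9 and *Pdk1* to *Pdk3* by 0.74 on the log2 scale, and *Pdk3* to *Pdk4* by 0.42 (exact permutation p = 0.029, adjusted 0.043 for each). By FPKM, and without GFP library 4, these calls missed the threshold, with an adjusted exact permutation p of 0.051 for the ratios of *Pdk1* and 0.086 for *Pdk3* to *Pdk4*. *Pdk2* did not separate from *Pdk3* (-0.15, exact permutation p = 0.2) or from *Pdk4* (0.27, exact permutation p = 0.057), though the ratio to *Pdk4* passed without OEIRF7 library 1 (0.35, adjusted exact permutation p = 0.037). The summed level of the 4 kinases was 40.2 ± 1.96 FPKM in the GFP libraries and 35.1 ± 0.931 FPKM in the libraries labelled OEIRF7, a ratio of 0.873.

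**Figure D3:**
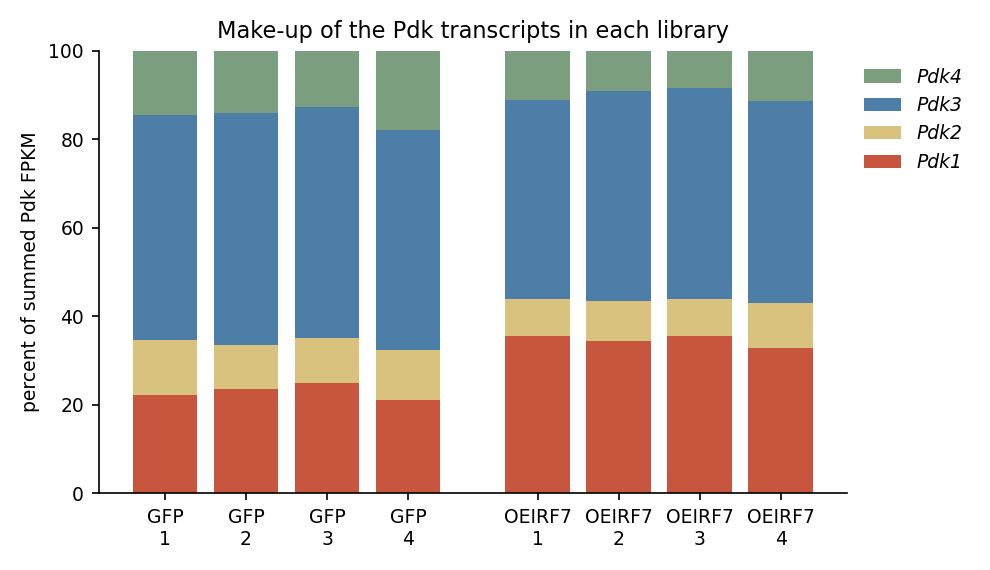
Share of each kinase in the summed FPKM of *Pdk1* to *Pdk4*, in percent, with 1 bar for each library labelled GFP (left 4) or OEIRF7 (right 4). The *Pdk1* part, at the bottom, covers 21% to 24.9% of the GFP bars and 32.7% to 35.6% of the OEIRF7 bars, and *Pdk3* is the largest part of all 8.

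The stretch before the *Pdk1* start is shown as that of the kinase that rose, from chr2:71872974-71873223 (plus strand, GRCm38.p6), with the same capitals.
Pdk1: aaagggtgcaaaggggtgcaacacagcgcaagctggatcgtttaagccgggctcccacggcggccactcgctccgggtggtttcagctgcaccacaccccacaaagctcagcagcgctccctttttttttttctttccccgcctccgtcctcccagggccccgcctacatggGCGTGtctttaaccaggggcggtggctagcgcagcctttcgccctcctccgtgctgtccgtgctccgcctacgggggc
It holds 1 marked place, GCGTG at -78. Another such site begins at -2 and runs past the end of the stretch shown, so it is not marked. Across the windows of 250 bases before to 50 after the start that RefSeq gives for 27025 mouse genes, 46.7% of genes have ACGTG or GCGTG. All 10 genes described here have it in at least 1 of their 14 windows, those that fell and the carrier genes included. Some genes have more than 1 window, which makes a hit easier. Counted by window, 11 of the 14 have it, against 43.8% of all 32851 windows. CACGTG is in 8.09% of genes and in 3 of the 10 (*Ldha*, *Slc16a1* and *Pdk2*), and AGGTCA in 18.1% and in 2 (*Ldhb* and *Mpc1*). The letters GAAA repeated after a gap of any 2 bases are the core of the interferon response element that IRF factors bind. They are in 3.99% of genes and 3.44% of all windows, and in 0 of the 14 windows of the 10 genes. These are letters in short windows and say nothing of binding.

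The order of the 10 genes by level changed with the group. In the GFP libraries *Ldha* was followed by *Mpc1* and *Slc16a3*, which overlapped each other, then by *Pdk3*, *Mpc2*, *Ldhb* and *Pdk1*, and last by *Pdk4*, *Slc16a1* and *Pdk2*, of which neighbours overlapped. In the libraries labelled OEIRF7 *Slc16a3* stood clear of *Mpc1*, behind *Ldha*, *Mpc2* and *Pdk3* overlapped, and *Pdk1* and *Slc16a1* lay above *Ldhb*. *Pdk4* and *Pdk2* remained last and overlapped. Among genes with a mean of at least 5 CPM, those most like *Slc16a3* over the 8 libraries in log2 CPM were *Ndrg4* (Pearson r = 0.9996), *Etv4* (0.9984) and *Tubb5* (0.9983). Those most like *Ldhb* were *Ninl* (0.9977), *Ehd2* (0.9974) and *Tnrc18* (0.9971). These correlations describe 8 libraries in 2 groups that differ in most genes.

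The pyruvate dehydrogenase complex, on which the kinases act, was lower in some of its parts. Of 9 genes of the complex and its phosphatases, 8 were tested, 1 was higher and 3 were lower (median log2 difference -0.01). The share called was 50%, against 58.9% of all genes tested. *Pdha1*, the E1 alpha subunit that the kinases phosphorylate, fell from 234.2 to 160.5 CPM (log2 difference -0.54, adjusted p = 3.6e-09). *Dlat*, the E2 core that also anchors the kinases, fell from 88.2 to 52.2 CPM (-0.76, adjusted p = 8.4e-10). *Pdhb*, the E1 beta subunit, was at 73.1 and 76.6 CPM (0.07, adjusted p = 0.17), and passed the threshold without GFP library 2 (0.1, adjusted p = 0.04). *Dld*, the E3 subunit, was at 91.5 and 87.5 CPM (-0.06, adjusted p = 0.19), and *Pdhx*, which binds E3 to the core, at 20.4 and 21 CPM (0.04, adjusted p = 0.53).

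The phosphatases that undo the kinases' work moved unevenly. *Pdp1*, the catalytic subunit stimulated by calcium, rose from 7.25 to 11 CPM (0.6, adjusted p = 1.5e-05). *Pdp2*, the other catalytic subunit, was at 21.2 and 23.6 CPM (0.16, adjusted p = 0.061). It passed the threshold without GFP library 3 (0.21, adjusted p = 0.018) or OEIRF7 library 2 (0.19, adjusted p = 0.043), with the replicate number as a block (0.16, adjusted p = 0.026), and without scaling beyond library size (0.18, adjusted p = 0.03). *Pdpr*, the regulatory subunit, fell by 0.48 on the log2 scale (adjusted p = 4.4e-06).

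Other enzymes that make or use pyruvate changed in both directions. Of 10 listed, 9 were tested, 2 were higher and 3 were lower (median log2 difference 0.13). The share called was 55.6%, against 58.9% of all genes tested. *Pkm*, the pyruvate kinase that forms pyruvate in these cells, rose from 1688 to 2593 CPM (log2 difference 0.62, adjusted p = 9.9e-09). *Gpt2*, the mitochondrial enzyme that exchanges pyruvate and alanine, fell from 22.5 to 13.2 CPM (-0.78, adjusted p = 2.9e-07). *Pck2*, which makes phosphoenolpyruvate in mitochondria, fell from 68.3 to 40.8 CPM (-0.74, adjusted p = 8.8e-09). *Me3*, a mitochondrial malic enzyme, fell from 4.09 to 1.66 CPM (-1.3, adjusted p = 1.3e-05, and -0.47 by limma on FPKM with a pseudocount of 1). *Pcx*, which carboxylates pyruvate to oxaloacetate, was at 41.6 and 45.6 CPM (0.13, adjusted p = 0.14) and passed the threshold without OEIRF7 library 2 (0.19, adjusted p = 0.032) and with the replicate number as a block (0.13, adjusted p = 0.035). Without OEIRF7 library 3 the *Pcx* difference was 0.06.

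The shuttles that carry cytosolic NADH into mitochondria, the alternative to lactate formation for regenerating NAD+, had 4 of 10 genes higher and 5 lower (median log2 difference -0.04). The share called was 90.0%, against 58.9% of all genes tested. *Got1*, the cytosolic aspartate aminotransferase, rose from 59.0 to 90.9 CPM (0.62, adjusted p = 1.7e-09), while *Got2*, its mitochondrial partner, fell from 195.2 to 134.7 CPM (-0.54, adjusted p = 8.4e-09). *Gpd1l*, related to the cytosolic glycerol-3-phosphate dehydrogenase, fell from 39.3 to 20.8 CPM (-0.92, adjusted p = 1.7e-09). The difference between the cytosolic and mitochondrial aminotransferase was not tested itself.

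Few genes of lactate sensing and lysine lactylation differed. Of 13 listed, 12 were tested, 1 was higher and 1 was lower (median log2 difference 0.04). The share called was 16.7%, against 58.9% of all genes tested. *Ep300*, an acetyltransferase described as able to transfer lactyl groups, was at 114.4 and 121.1 CPM (0.08, adjusted p = 0.2), and *Aars*, the alanyl-tRNA synthetase also described in this role, at 296.6 and 303.3 CPM (0.03, adjusted p = 0.45). *Hdac2*, a deacetylase, rose by 0.15 on the log2 scale (adjusted p = 0.0035), and *Sirt2*, another deacetylase, fell by 0.49 (adjusted p = 4e-08). *Hcar1*, the lactate receptor, had too few reads to be tested.

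Among 20 regulators known for one or more of the 10 genes, all were tested, 7 were higher and 7 were lower (median log2 difference 0.11). The share called was 70%, against 58.9% of all genes tested. *Hif1a*, the oxygen-regulated subunit of HIF-1, rose from 467.8 ± 69.9 (SD) to 656.7 ± 139 CPM (0.49, SE 0.121, adjusted p = 0.0028). Leaving out each library gave 0.33 to 0.58 for *Hif1a*, with 0.33 without OEIRF7 library 3. *Egln3*, a HIF prolyl hydroxylase that HIF itself induces, rose from 7.22 to 15.9 CPM (1.14, adjusted p = 2.4e-08). *Epas1*, which encodes the related HIF-2 alpha, fell from 212.6 to 81.7 CPM (-1.38, adjusted p = 5.7e-10). *Myc* rose from 24.7 to 43.6 CPM (0.82, adjusted p = 8.9e-08). *Klf15*, a glucocorticoid-induced factor, fell from 5.64 to 2.87 CPM (-0.98, adjusted p = 1.1e-05, and -0.61 by limma on FPKM with a pseudocount of 1). *Ppargc1a*, a coactivator of mitochondrial genes, was near the limit of detection at 0.504 and 1.17 CPM (1.2, adjusted p = 0.0037), and did not pass in FPKM by limma (adjusted p = 0.2 and 0.23). HIF activity is set largely by protein stability, and RNA measures neither this stability nor the activity of the hydroxylases.

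**Figure D4:**
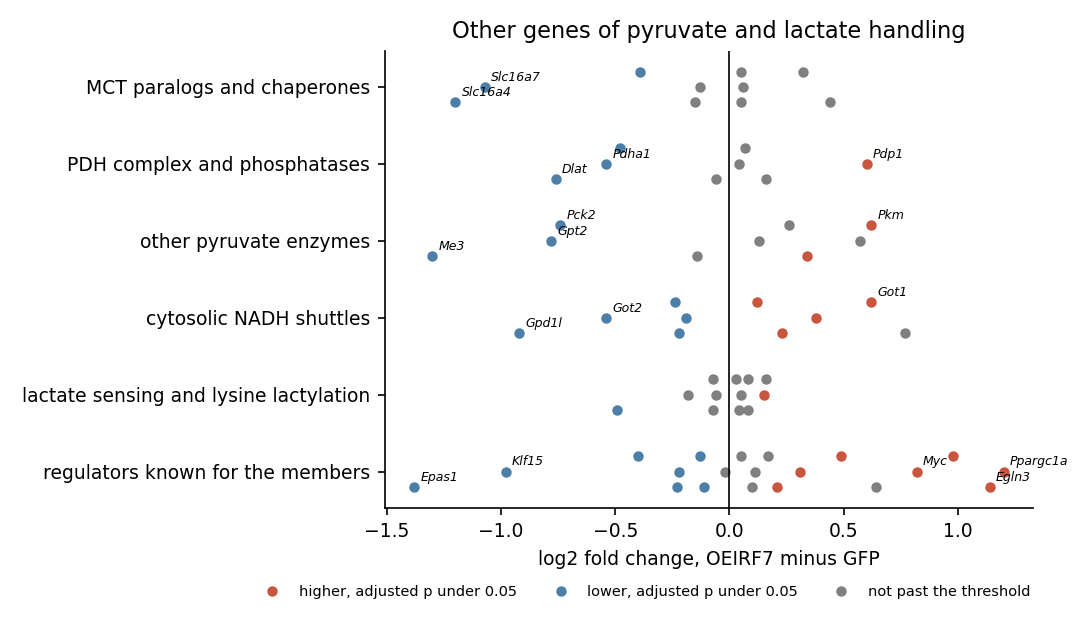
Log2 fold change (OEIRF7 minus GFP, edgeR) of the other tested genes of pyruvate and lactate handling, with 1 row of points for each list; red, blue and grey mark higher, lower and not past an adjusted p of 0.05, and genes named by rule with a size above 0.5 are labelled. Points lie on both sides of 0 in each list, from -1.38 for *Epas1* to 1.2 for *Ppargc1a*.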

How the data were processed

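Per the labels and the study's methods, the authors trimmed reads with Trimmomatic, mapped them with HISAT2 to GRCm38 and counted them per gene with HTSeq-count. They deposited raw counts, and FPKM from Cufflinks rounded to a few decimals. Tool versions and the strand setting are not given in the sources used here. The description deposited with the series names another virus type, and the labels name other kits, than the methods, which were followed. Legends give fewer replicates than the 4 libraries per group used. The authors' own group means, fold changes, p-values and FDR were not used.

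In R 4.3.3, edgeR 4.0.16 (filterByExpr, TMM, glmQLFit, glmQLFTest, no covariate) compared the groups over 13533 genes, with Benjamini-Hochberg adjustment. SE is the log2 fold change divided by the square root of F, and 95% intervals are normal approximations. Shares used FPKM, and ratios used counts plus 0.5. Exact two-sided permutation tests used 4 against 4 libraries (smallest p 0.029). Alternatives were DESeq2 1.42.0, limma 3.58.1 on FPKM (pseudocounts 1 and 0.1, mean of at least 0.1 FPKM), other scalings and filters, the replicate block and leaving out each library. Scripts were tested on simulated data.

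The members and lists were chosen with earlier results of these data known. Named were all 10 members; their main partners; the shared regulators *Hif1a* and *Myc*; per list, up to 6 genes of at least 1 CPM with the largest differences over 0.5 past the threshold; the genes most like *Slc16a3* and *Ldhb*; and *Irf7* and *Hk1*. *Slc16a6*, *Pdpr*, *Ldhc*, *Ldhal6b*, *Ldhd*, *Ep300*, *Aars*, *Hdac2*, *Sirt2* and *Hcar1* were named after their values were seen. Coordinates are from GENCODE M21, promoters from RefSeq. Replicate numbers were not taken to pair the libraries, since the labels do not say that they do. Deviations of the same number correlated at 0.0792, 0.0953, 0.138 and 0.104. Those of different numbers ran lower, from -0.158 to 0.0476, so a pairing remains possible. Libraries held 24454801 to 28658826 counted reads, so genes under about 1 CPM are measured with little precision.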

Additional observations from a re-analysis of the deposited data

Results flagged for a closer look

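Single libraries stood apart from the other 3 of their group for 2 of 52 values looked at. *Slc16a1* was at 4.89 log2 CPM in OEIRF7 library 3, with the others of its group between 5.04 and 5.06. *Pdk1* was at 5.75 log2 CPM in GFP library 3, with the others of its group between 5.52 and 5.56. In each case the gap to the nearest library, as a share of the group's range, exceeded Dixon's critical value for 4 samples, which chance does in about 5% of groups. Both libraries moved their group towards the other group, and both genes passed the threshold with and without them. Over all genes tested, OEIRF7 library 3 stood furthest from its group. Its counts differed from libraries 1, 2 and 4 by a chi-square per degree of freedom of 7.36, 10.4 and 9.76. Pairs without it gave 2.95, 3.69 and 4.66. In the GFP group, pairs with library 2 gave 5.69, 6.92 and 6.19, and the others 3.55 to 4.1. The *Mpc1*, *Pcx* and *Hif1a* differences and the *Pdk4* share moved without OEIRF7 library 3, as given above.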

How the results depend on the processing

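No called result changed direction under the alternatives run. The uncalled *Mpc1* share turned from 0.211 to -0.11, -0.0643, -0.594 and -0.622 percentage points without GFP library 2 or 3 or OEIRF7 library 2 or 4, and the *Mpc1* to *Mpc2* ratio from 0.02 to -0.0, -0.04 and -0.04 without GFP library 2 or OEIRF7 library 2 or 4; leaving out each library gave -0.622 to 1.05 and -0.04 to 0.08. All 8 calls on single members held under each. The log2 difference of *Mpc1* ranged from 0.07 to 0.13 on leaving out each library, and passed the threshold only without OEIRF7 library 3 (0.13, adjusted p = 0.021). By FPKM in place of counts, 6 ratios lost their adjusted call at nearly the same value: *Ldha* to *Ldhb* 1.84, *Slc16a3* to *Slc16a1* 1.0, *Pdk1* to *Pdk2* 0.9, *Pdk1* to *Pdk3* 0.74 and *Pdk1* to *Pdk4* 1.17 (exact permutation, adjusted p = 0.051 each), and *Pdk3* to *Pdk4* 0.43 (adjusted p = 0.086); fewer ratios then reached the smallest p of the design. The *Pdk2* share gained a call by counts (-2.15 percentage points, exact permutation, adjusted p = 0.033). Without GFP library 4 the same 6 ratios missed the threshold. Leaving out each library gave 1.74 to 1.91, 0.92 to 1.11, 0.81 to 0.99, 0.71 to 0.77, 1.08 to 1.24 and 0.35 to 0.47 for them in the order above, 0.23 to 0.35 for *Pdk2* to *Pdk4*, and -2.52 to -1.53 and -5.48 to -3.82 percentage points for the *Pdk2* and *Pdk4* shares. With the replicate number as a block, ratios cannot pass 0.05 in an exact sign-flip test. With the replicate block, 8211 genes were called against 7969, *Ldha* was 0.52 (adjusted p = 3.1e-10) and no member's call changed; every library correlated best with its own number, a hint from the data and not from the design. RNA levels give neither enzyme activity nor lactate flux.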
